A study of Rattus norvegicus with 10 samples.

Results

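Chemokines and their receptors were followed in 10 rat lung RNA sequencing libraries, 5 labelled MOD and 5 labelled XBS. The genes were taken by name alone: every row of the deposited table for a CC, CXC, CX3C or XC chemokine, for platelet factor 4 and pro-platelet basic protein, for a chemokine receptor, or for an atypical receptor. This gave 58 genes of 22250 in the table, of which the role lists place 36 among ligands and 21 among receptors, leaving Ccr1l1 in neither. The series describes rats in which neutrophilic asthma was induced with ovalbumin, an allergen from egg white, together with lipopolysaccharide from bacterial walls, and in which a herbal formula abbreviated SP was then given. The labels give neither the meaning of MOD and XBS nor the strain, age, dose or time of sampling, and no untreated group was analysed here, so each result is a comparison of XBS with MOD. Separate animals are not named for the 5 libraries of a group, so a p-value covers only library-to-library spread, and that spread may be technical.

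Chemokines are small secreted proteins that guide leukocytes along concentration gradients through receptors coupled to inhibitory G proteins. Their families are named after the spacing of the first cysteines, and most ligands act on a few receptors that are carried by particular leukocytes. In the lung, ligands of CXCR1 and CXCR2 draw neutrophils into the airways, ligands of CXCR3 draw activated T cells, ligands of CCR2 draw monocytes and ligands of CCR3 draw eosinophils. Atypical receptors bind chemokines without coupling to G proteins and clear or redistribute them.

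Total counts were 11998979 to 15518929 per library, and 3 counts corresponded to 0.1898 to 0.247 CPM, the count scaled to a common library size (counting error only). Besides lung tissue the labels name 16HBE, a human bronchial epithelial cell line, but the table lists rat genes, and markers of alveolar epithelium, airway, endothelium and leukocytes were all present. Among cell type markers, the neutrophil granule genes Mpo and Elane stayed at or below 0.74 CPM in every library. The whole list of neutrophil markers summed to 796 to 1090.4 CPM for MOD against 953 to 1599 CPM for XBS, so these 2 genes do not stand for the list. Summed club cell markers were 9616 to 13092 CPM for MOD against 3016 to 10249 CPM for XBS, with XBS 2 and XBS 3 lowest. In tissue RNA, fewer cells of a type and less RNA per cell cannot be told apart.

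No chemokine or receptor gene passed the threshold by edgeR, and more of them stood slightly above than below the MOD level. Of the 58 genes, 50 had enough counts to be tested by edgeR, and tested refers to that fit. By edgeR's quasi-likelihood test 0 of the 50 were past an adjusted p of 0.05, 0 higher in XBS (0.0279% of all genes) and 0 lower (0.0489%), where 11 of all 14320 genes tested were (0.0768%), and limma voom with sample weights also gave 0 (0.461% of all genes). DESeq2 gave 1 gene of 52, Cxcl10, which was higher, against 2.23% of all genes in either direction and 1.31% higher. At an unadjusted p under 0.05, edgeR gave 7 of the 50 (14%), 5 higher and 2 lower in XBS, where 13.2% of all genes were, 7.4% higher and 5.78% lower. That share is close to the background. The count came to 3 of 51 tested without MOD 3, 4 of 50 without MOD 4 and 11 of 51 without MOD 5. The share over all genes was not taken in these 3 fits. Groups that did not overlap were found for 0 of the 50, against 2.74% of all genes (1.61% higher and 1.13% lower in XBS). The log2 fold change was positive in 38 of the 50 (76%), against 51.9% of all genes, and its median was 0.21 against 0.010. Both values rested in part on XBS 5: without that library, 31 of the 50 were positive and the median was 0.11.

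**Figure D1:**
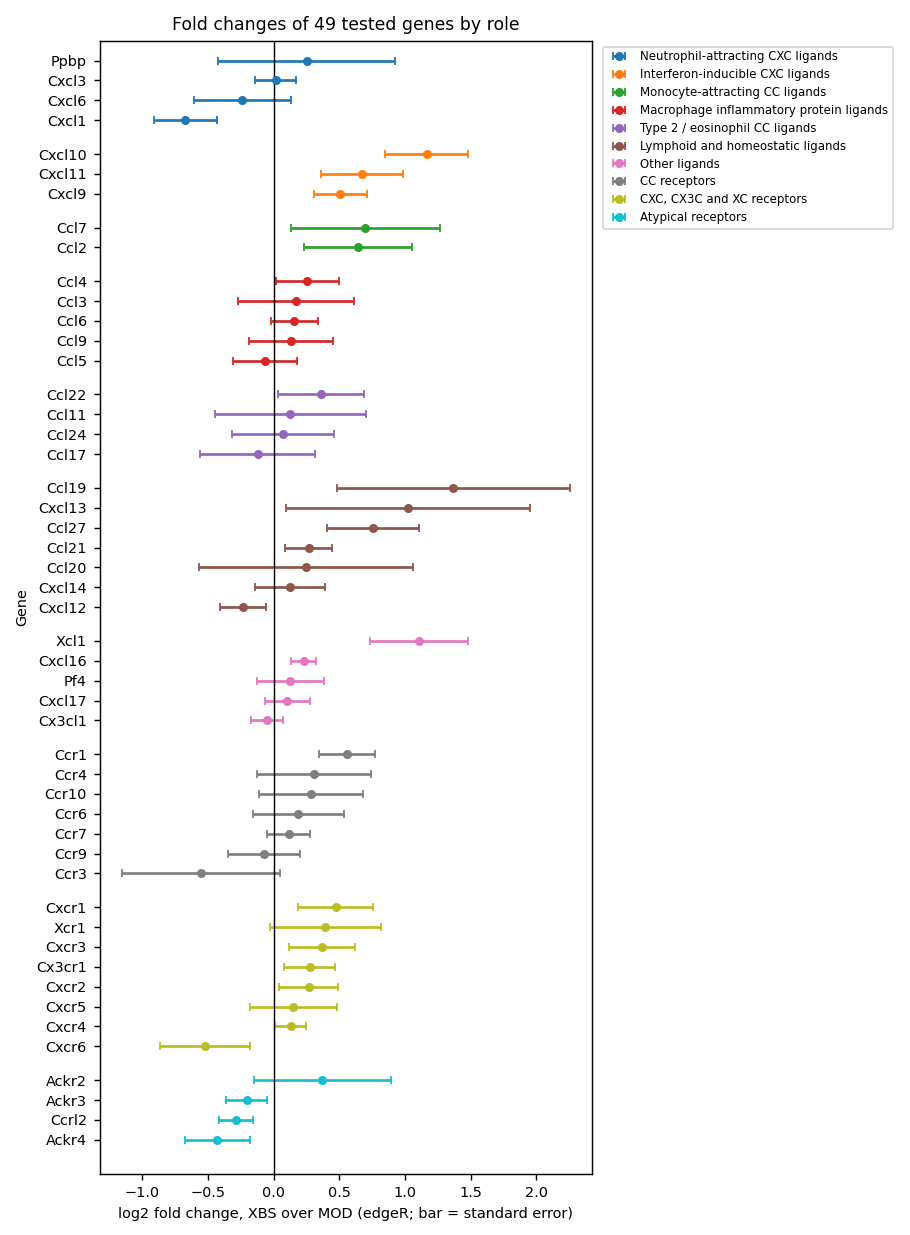
Log2 fold change of XBS over MOD (horizontal axis) with its standard error for 49 of the tested genes, coloured and grouped by the role of the encoded protein. All 3 CXCR3 ligands lie to the right of 0 and Cxcl1 lies farthest to the left, and the widest bars belong to Ccl19, Cxcl13 and Ccl20.

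Expression per length differed far more between genes than between groups. FPKM, the count per gene length and library total as deposited, put the neutrophil-attracting ligand Cxcl3 first at a mean of 435 FPKM (323 to 547) over the 10 libraries. Cxcl3 alone made up 18.9% to 29.8% of the summed FPKM of the 58 genes in a library. The deposited row of Cxcl3 spans 18820168 to 18839595 on chromosome 14, longer than that of Cxcl1 (18743685 to 18745457). Whether reads of another transcript were counted in the Cxcl3 row was not tested. Ccl6, a rodent CC chemokine of myeloid cells, followed at 195 FPKM (126 to 257). Next came Cxcl17, a chemokine of mucosal epithelium, at 182 FPKM (118 to 232), Ccl21, which guides T cells and dendritic cells through lymphatics, at 150.3 FPKM (95.9 to 240.3), and Ccl5, an attractant of T cells and monocytes, at 119.6 FPKM (70.9 to 162). The ranges of these 4 genes overlap each other and none reaches that of Cxcl3. Pf4, which platelets and megakaryocytes make, stood at 92.5 FPKM (54.5 to 141). The highest receptors were the scavenging receptor Ackr3 at 74.2 FPKM (49.9 to 96.0) and the CXCL12 receptor Cxcr4 at 54.8 FPKM (43.1 to 68.2).

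**Figure D2:**
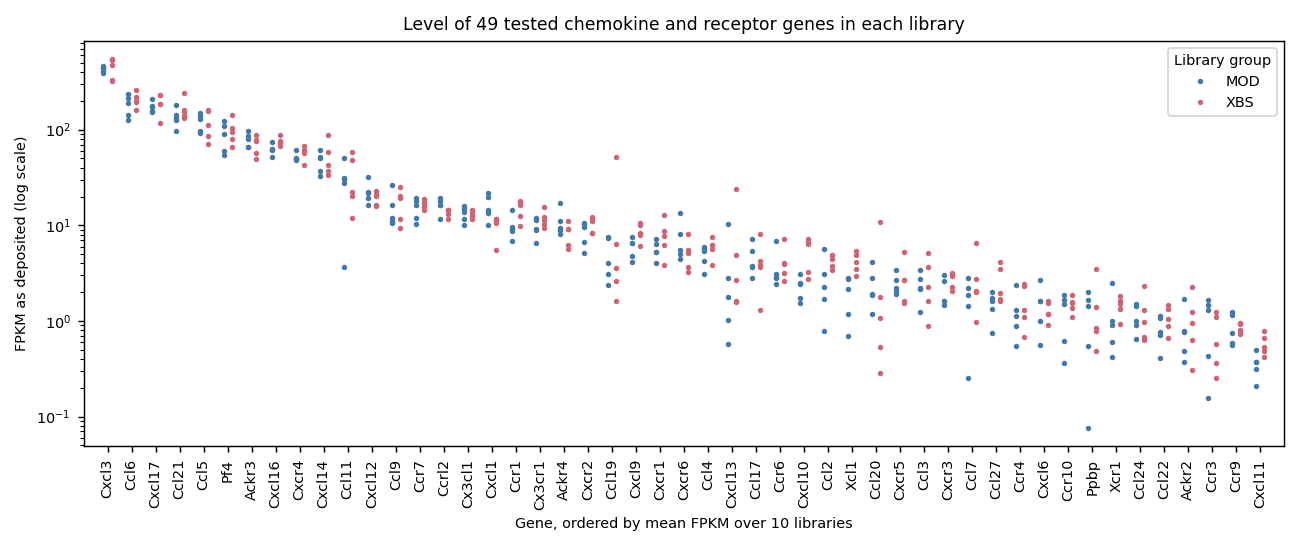
FPKM as deposited (vertical axis, log scale) of 49 of the tested genes in each library, ordered by their mean, with MOD and XBS libraries side by side. Cxcl3 lies above all others, between 323 and 547 FPKM, and single libraries stand far above the rest of their group for Ccl19, Cxcl13 and Ccl20.

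The CXCR3 ligands Cxcl9, Cxcl10 and Cxcl11, which interferon induces and which attract activated T cells and NK cells, all had positive fold changes. Of the 3 genes 0 rose, 0 fell and 3 did not pass. Cxcl10 had the smallest p of all 50 genes and stood at 1.94, 2.88, 1.76, 3.59 and 2.83 CPM in MOD 1 to 5, and 7.97, 7.55, 3.77, 3.04 and 6.96 CPM in XBS 1 to 5. XBS 1, XBS 2, XBS 3 and XBS 5 lay above every MOD library, and XBS 4 lay between MOD 2 and MOD 4. The means were 2.60 ± 0.753 CPM for MOD against 5.86 ± 2.28 CPM for XBS (SD, n = 5), which is 2.24-fold (log2 change 1.16 ± 0.32 (SE), adjusted p = 0.187). By DESeq2 the adjusted p was 0.0302, and with single libraries left out the edgeR fold change kept a log2 value of 1.03 to 1.33 (adjusted p from 0.106 to 0.416).

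Cxcl9 was 1.42-fold higher, with 7.17, 11.4, 6.15, 10.04 and 10.1 CPM in MOD 1 to 5, and 11.7, 8.96, 12.8, 15.7 and 14.6 CPM in XBS 1 to 5. XBS 2 fell within the MOD range, and XBS 1, XBS 3, XBS 4 and XBS 5 lay above it (log2 change 0.51 ± 0.20 (SE), adjusted p = 0.333). Cxcl11 was the least abundant tested member by FPKM, with 5 to 19 counts per library. It stood at 0.573, 0.793, 0.585, 0.332 and 0.496 CPM in MOD 1 to 5, and 0.74, 0.814, 0.673, 1.20 and 1.00 CPM in XBS 1 to 5, a log2 fold change of 0.67 ± 0.31 (SE; adjusted p = 0.387). The library order differed among the 3 genes: XBS 4 was the lowest XBS library for Cxcl10 and the highest for Cxcl9 and Cxcl11. Cxcr3, the receptor of these ligands, carried by activated T cells and NK cells, had 2.41 to 5.10 CPM for MOD against 3.41 to 5.45 CPM for XBS (log2 fold change 0.37 ± 0.25 (SE; adjusted p = 0.531)). Beside these genes, summed T cell markers were 180.1 to 244 CPM for MOD against 244 to 303 CPM for XBS and summed NK cell markers 117 to 156 CPM for MOD against 103 to 216 CPM for XBS; the part of these cells was not tested.

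The genes of the 3 ligands are neighbours on chromosome 14, and Cxcl1, the member with the most negative fold change, lies further along the same chromosome. In the deposited table Cxcl11, Cxcl10 and Cxcl9 span 17195014 to 17234712, and a cluster of Cxcl2, Cxcl1, Cxcl3, Pf4, Ppbp and Cxcl6 spans 18731378 to 18862407 (the sources used here name no rat build). The 250 bases before the start of transcription of the CXCR3 ligands and of Cxcl1 are shown because these genes had opposite signs; they come from RefSeq on the rat build GRCr8, at chr14:16006916-16007165 for Cxcl9, chr14:15988816-15989065 for Cxcl10 and chr14:15973478-15973727 for Cxcl11, all on the plus strand, and chr14:17479322-17479571 for Cxcl1 on the minus strand. Capitals mark matches, on either strand, to the NF-kB consensus and to the core of the interferon-stimulated element, GAAANNGAA.
Cxcl10: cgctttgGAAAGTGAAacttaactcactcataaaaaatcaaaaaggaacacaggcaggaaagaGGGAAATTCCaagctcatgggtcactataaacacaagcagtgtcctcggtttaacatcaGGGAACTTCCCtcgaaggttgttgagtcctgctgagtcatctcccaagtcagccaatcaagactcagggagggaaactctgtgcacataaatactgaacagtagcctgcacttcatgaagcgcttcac
Cxcl11: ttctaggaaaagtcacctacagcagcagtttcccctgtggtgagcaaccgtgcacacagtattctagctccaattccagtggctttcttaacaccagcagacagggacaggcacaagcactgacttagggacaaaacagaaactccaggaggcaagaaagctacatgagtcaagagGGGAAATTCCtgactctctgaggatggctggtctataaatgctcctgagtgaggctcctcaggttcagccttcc
Cxcl9: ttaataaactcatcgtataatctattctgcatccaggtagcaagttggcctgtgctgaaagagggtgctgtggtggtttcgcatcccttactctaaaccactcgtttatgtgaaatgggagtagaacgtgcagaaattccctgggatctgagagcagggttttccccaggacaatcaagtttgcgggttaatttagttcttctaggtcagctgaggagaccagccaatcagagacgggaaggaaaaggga
Cxcl1: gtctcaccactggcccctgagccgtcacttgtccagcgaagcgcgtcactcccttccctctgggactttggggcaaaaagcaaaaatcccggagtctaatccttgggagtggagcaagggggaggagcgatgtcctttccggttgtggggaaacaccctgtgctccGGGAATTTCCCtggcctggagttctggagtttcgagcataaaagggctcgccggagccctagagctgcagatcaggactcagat

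In these windows Cxcl10 held an interferon element core from 243 to 235 bases before the start, an NF-kB match from 187 to 178 bases, and a second NF-kB match from 128 to 119 bases that overlaps one on the other strand from 127 to 118. Cxcl11 held an NF-kB match from 74 to 65 bases before the start and Cxcl1 one from 84 to 75, again overlapped by one on the other strand. Cxcl9 held neither set of letters. Of the 58 genes, 44 had a promoter in the RefSeq table, and 9 of these (20.5%) matched the NF-kB consensus, against 6.33% of all 33469 promoters. Here and below, members were counted with 1 promoter each, and the 33469 were not reduced to 1 per gene. The 9 members with a match were Ccl7, Ccl9, Ccl20, Ccr3, Cxcl1, Cxcl2, Cxcl6, Cxcl10 and Cxcl11, and the tested genes among them had fold changes of both signs. The interferon core was found in 2, Ccl19 and Cxcl10 (4.55% against 8.12% of all promoters). The glucocorticoid response element consensus and the cyclic AMP response element TGACGTCA were found in 0 of the 44, where 0.176% and 1.59% of all promoters held them. A match is a description of letters, and 14 genes, Cxcl3 among them, had no promoter in that table.

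Among the neutrophil-attracting ligands of CXCR1 and CXCR2, Cxcl1 was lower on average in XBS and the most abundant ligand, Cxcl3, had nearly equal means. Of 5 measured genes 4 were tested, 0 rose, 0 fell and 4 did not pass. Cxcl1, an acute attractant for neutrophils that NF-kB induces, stood at 12.3, 9.59, 19.97, 13.4 and 18.7 CPM in MOD 1 to 5, and 10.7, 10.4, 5.25, 10.5 and 9.61 CPM in XBS 1 to 5. MOD 2 lay inside the XBS range, and the 4 other MOD libraries lay above every XBS library. The means were 14.8 ± 4.40 CPM for MOD against 9.28 ± 2.29 CPM for XBS (SD, n = 5), 1.59-fold lower in XBS (log2 change -0.67 ± 0.24 (SE), adjusted p = 0.294). DESeq2 gave an adjusted p of 0.146.

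Cxcl3 had 640.0, 664, 674, 580.4 and 624 CPM in MOD 1 to 5, and 768, 469, 828, 675 and 473 CPM in XBS 1 to 5. The XBS libraries spread on both sides of the MOD range, with XBS 2 and XBS 5 below it and XBS 1, XBS 3 and, by a narrow margin, XBS 4 above it. Their SD was 166 CPM, against 36.9 CPM in MOD, around means of 643 and 636 CPM (log2 fold change 0.014 ± 0.16 (SE; adjusted p = 0.975)). Cxcl2, like Cxcl1 a rapidly induced attractant, had 5 to 11 counts per library, 41 in all MOD libraries and 33 in all XBS libraries, and did not pass the count filter of the edgeR fit. Without the filter its log2 fold change was -0.29 by edgeR (adjusted p = 0.787), and DESeq2 also gave -0.29 (adjusted p = 0.843). Cxcl6 stood at 2.58, 1.66, 2.63, 0.931 and 4.46 CPM in MOD 1 to 5, and 1.89, 2.59, 2.56, 1.90 and 1.43 CPM in XBS 1 to 5. Its groups overlapped and its log2 fold change was -0.24 ± 0.37 (SE; adjusted p = 0.809). Ppbp, a platelet chemokine, stood at 1.79, 0.505, 1.32, 1.53 and 0.0708 CPM in MOD 1 to 5, and 3.12, 1.26, 0.741, 0.759 and 0.43 CPM in XBS 1 to 5, with MOD 5 at 1 count (log2 fold change 0.25 ± 0.68 (SE; adjusted p = 0.893)). The signs of Cxcl3, Cxcl6 and Ppbp changed when single libraries were left out. The counting could have split reads among Cxcl1, Cxcl2 and Cxcl3 where their sequences are near-identical, so the level of each is uncertain to that extent.

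The receptors of these ligands are carried mainly by neutrophils. Cxcr1 stood at 10.5, 7.86, 7.76, 5.98 and 9.70 CPM in MOD 1 to 5, and 12.7, 5.63, 19.5, 11.3 and 8.89 CPM in XBS 1 to 5. XBS 3 was the highest library and XBS 2 the lowest of all 10 (log2 change 0.47 ± 0.29 (SE), adjusted p = 0.486). Cxcr2 stood at 6.67, 14.1, 8.85, 12.9 and 14.1 CPM in MOD 1 to 5, and 10.8, 14.4, 16.3, 16.0 and 10.7 CPM in XBS 1 to 5. Its groups overlapped, with MOD 1 lowest and XBS 3 highest (log2 change 0.27 ± 0.22 (SE), adjusted p = 0.612). Neither passed, and both values rested in part on 1 library: the log2 change of Cxcr1 was 0.20 (adjusted p = 0.741) without XBS 3 and that of Cxcr2 0.13 (adjusted p = 0.761) without MOD 1, or 0.14 (adjusted p = 0.836) without XBS 2 and XBS 3. Of 16 tested neutrophil markers, 16 had a positive fold change, against 51.9% of all genes, and 0 rose, 0 fell and 16 did not pass. By edgeR 2 of them (12.5%) had an unadjusted p under 0.05, against 13.2% of all genes. Their summed levels were 796 to 1090.4 CPM for MOD against 953 to 1599 CPM for XBS, with a median log2 fold change of 0.43. The part of neutrophil content in the receptor values was not tested.

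**Figure D3:**
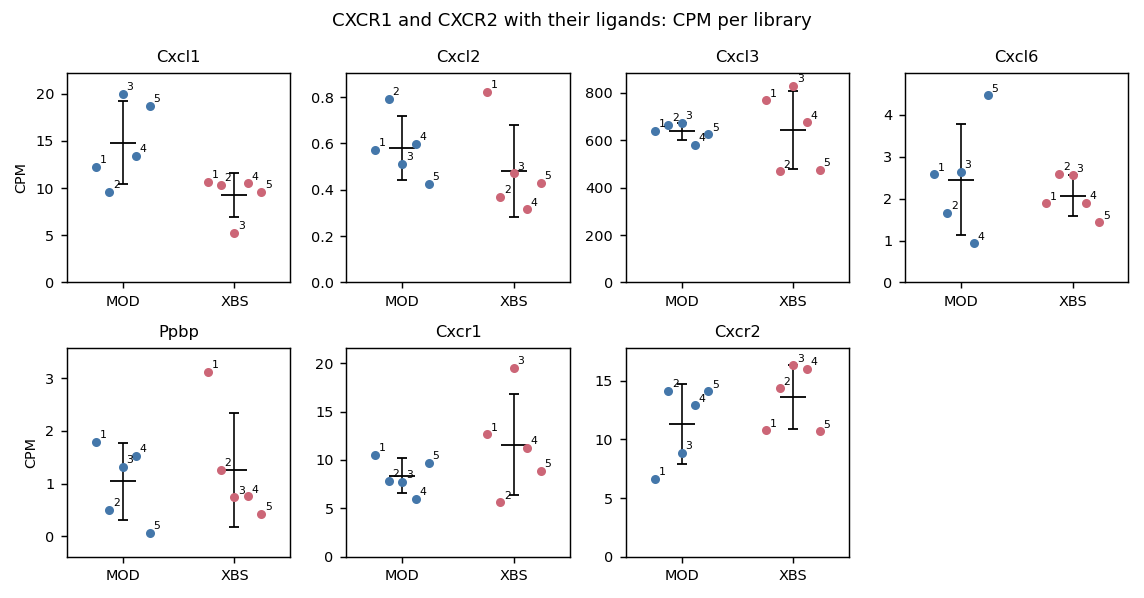
CPM in each library for the ligands of CXCR1 and CXCR2 and for the receptors, with replicate numbers beside the points and the mean and SD of each group. Cxcl1 was at or below 10.7 CPM in every XBS library, and the XBS libraries of Cxcl3 lay between 469 and 828 CPM around the narrower MOD group.

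Monocyte-attracting ligands were few in reads. Ccl2, the main ligand of CCR2, stood at 0.645, 1.44, 2.56, 1.93 and 4.82 CPM in MOD 1 to 5, and 3.70, 2.81, 4.18, 3.10 and 4.02 CPM in XBS 1 to 5. The XBS values were close to each other, and MOD 5 was the highest library of all (log2 fold change 0.64 ± 0.41 (SE; adjusted p = 0.506)). Ccl7, a related ligand, had 0.215 to 2.41 CPM for MOD against 0.814 to 5.38 CPM for XBS, with XBS 5 highest (log2 fold change 0.70 ± 0.57 (SE; adjusted p = 0.603)). Ccl12 had 1 to 23 counts and was not tested. Of the 2 tested genes 0 rose, 0 fell and 2 did not pass. Summed monocyte and interstitial macrophage markers were 18573 to 26582 CPM for MOD against 13279 to 33813 CPM for XBS. This sum was highest in XBS 3 and lowest in XBS 5, as was the sum of alveolar epithelial markers (33542 and 16826 CPM). A sum follows its most abundant genes, so it does not weigh the 13 markers evenly. Of these 13 markers 11 had a positive fold change, with a median of 0.40 (log2), and 5 (38.5%) had an unadjusted p under 0.05, all higher in XBS, against 13.2% of all genes. By edgeR 0 of the 13 rose or fell, where 0.0768% of all genes did. DESeq2 called 1, C1qb, where 2.23% of all genes were called. The groups of C1qb did not overlap, which held for 1 of the 13 against 2.74% of all genes. The part of these cells in the values of Ccl2, Ccl7 and Ccr1 was not tested.

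The macrophage inflammatory protein ligands and their relatives, CC chemokines of T cells and myeloid cells, showed small differences. All 5 were tested, 0 rose, 0 fell and 5 did not pass, and their log2 fold changes ran from -0.063 to 0.25. Ccl5, which T cells, NK cells and platelets release, had 52.1 to 83.3 CPM for MOD against 37.6 to 89.0 CPM for XBS and a log2 fold change of -0.063 ± 0.24 (SE; adjusted p = 0.928). The lowest 2 libraries were XBS 4 and XBS 5 and the highest 2 XBS 2 and XBS 3, so the XBS spread enclosed the MOD libraries. Ccl6 stood at 253 ± 64.8 CPM for MOD against 282 ± 48.2 CPM for XBS (SD, n = 5), and Ccl9, a rodent chemokine of myeloid cells, at 20.01 ± 8.81 CPM for MOD against 21.9 ± 8.19 CPM for XBS (SD, n = 5). The macrophage inflammatory protein genes Ccl3 and Ccl4 were at 0.951 to 2.59 CPM for MOD against 0.645 to 3.85 CPM for XBS, and at 1.98 to 3.82 CPM for MOD against 2.37 to 4.68 CPM for XBS, respectively.

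Ccr1, a receptor of several of these ligands, was on average higher in XBS. Found on monocytes, macrophages and neutrophils, it stood at 17.5, 17.7, 12.7, 16.2 and 27.3 CPM in MOD 1 to 5, and 32.8, 31.2, 23.8, 29.4 and 17.6 CPM in XBS 1 to 5. XBS 1, XBS 2 and XBS 4 lay above every MOD library, and MOD 5 lay above XBS 3 and XBS 5. The means were 18.3 ± 5.41 CPM for MOD against 27.0 ± 6.26 CPM for XBS (SD, n = 5), 1.47-fold (log2 change 0.56 ± 0.21 (SE), adjusted p = 0.316). With single libraries left out the log2 fold change ran from 0.45 without MOD 3 to 0.75 without MOD 5.

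Ligands tied to eosinophils and type 2 responses overlapped between the groups. Of 6 measured genes 4 were tested, 0 rose, 0 fell and 4 did not pass. Ccl11, the eosinophil attractant eotaxin, stood at 3.66, 28.6, 51.8, 31.1 and 32.1 CPM in MOD 1 to 5, and 11.999, 20.1, 23.4, 57.5 and 47.3 CPM in XBS 1 to 5. MOD 1 was the lowest library and XBS 1 the lowest of its group, and the remaining libraries of both groups ran from 20.1 to 57.5 CPM (log2 fold change 0.13 ± 0.57 (SE; adjusted p = 0.941)). Ccl24, a further eotaxin, had a log2 fold change of 0.072 ± 0.39, and the CCR4 ligands Ccl17 and Ccl22 had -0.12 ± 0.44 and 0.36 ± 0.32, all with overlapping groups. Ccr3, the eotaxin receptor, ranged from 0.502 to 5.52 CPM for MOD against 0.822 to 3.92 CPM for XBS, lowest in MOD 1 and XBS 1 as Ccl11 was (log2 fold change -0.55 ± 0.60 (SE; adjusted p = 0.707)). Ccr4, a receptor of T helper 2 and regulatory T cells, had a log2 fold change of 0.31 ± 0.43 (SE; adjusted p = 0.786). Ccl1 had 0 to 3 and Ccl26 0 to 1 counts per library, too few to compare, and Ccr8, the receptor of CCL1, had 1 to 16. Ccr8 reads summed to 18 in MOD and 46 in XBS. Summed eosinophil and mast cell markers were 178 to 269.8 CPM for MOD against 146 to 267 CPM for XBS, with 4 of 6 tested genes positive and the eosinophil granule genes Prg2 and Epx at or below 0.888 CPM in every library, and the part of these cells was not tested.

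Chemokines of lymphoid tissue were set apart by XBS 5 and, in part, by MOD 5. Of 9 measured lymphoid and homeostatic ligands 7 were tested, 0 rose, 0 fell and 7 did not pass. Ccl19, which brings T cells and dendritic cells together through CCR7, stood at 1.79, 5.84, 3.07, 2.39 and 5.81 CPM in MOD 1 to 5, and 1.97, 2.67, 1.28, 4.81 and 38.1 CPM in XBS 1 to 5. All values but that of XBS 5 lay at or below 5.84 CPM. The log2 fold change was 1.37 ± 0.89 (SE; adjusted p = 0.511), the highest of all 50 genes, and became -0.49 (adjusted p = 0.604) without XBS 5 (XBS 2 and XBS 3 left out together gave 1.98, adjusted p = 0.423). Cxcl13, which attracts B cells into follicles through CXCR5, stood at 0.645, 3.24, 1.17, 2.06 and 12.1 CPM in MOD 1 to 5, and 1.81, 1.78, 3.17, 5.50 and 26.8 CPM in XBS 1 to 5. XBS 5 and MOD 5 were the highest library of their group, and the log2 fold change went from 1.02 ± 0.93 (adjusted p = 0.645) to -0.32 (adjusted p = 0.844) without XBS 5 and to 2.13 (adjusted p = 0.360) without MOD 5.

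Ccl20, an epithelial ligand of CCR6, stood at 0.932, 2.23, 1.46, 1.53 and 3.33 CPM in MOD 1 to 5, and 0.411, 0.222, 0.875, 1.39 and 8.32 CPM in XBS 1 to 5. XBS 5 was the highest of all 10 libraries, and the 4 other XBS libraries lay at or below 1.39 CPM. Its log2 fold change went from 0.24 ± 0.81 (adjusted p = 0.916) to -1.35 (adjusted p = 0.299) without XBS 5. Ccl21 stood at 79.7, 108, 150.0, 112 and 121 CPM in MOD 1 to 5, and 114, 134, 115, 127 and 195 CPM in XBS 1 to 5. It too was highest in XBS 5, and its log2 fold change went from 0.27 ± 0.18 (adjusted p = 0.531) to 0.10 (adjusted p = 0.741) without that library and 0.16 (adjusted p = 0.631) without MOD 1. The receptors did not all follow: Ccr6 was alike in XBS 5 (10.04 CPM) and MOD 5 (9.99 CPM) and at 3.44 to 5.86 CPM elsewhere, Cxcr5 was highest in XBS 5 (7.67 CPM) and at 2.90 CPM in MOD 5, and Ccr7 ranged from 14.8 to 27.3 CPM for MOD against 21.1 to 26.2 CPM for XBS. Summed B cell markers were 119 to 225 CPM for MOD against 151 to 300.5 CPM for XBS, highest in XBS 5, and Cr2, the complement receptor of B cells and follicular dendritic cells, was at 50.8 CPM in XBS 5 and at 3.52 to 15.9 CPM in the other 9 libraries. Summed lymph node and thymus markers were 80.9 CPM in XBS 5 and 30.1 to 51.9 CPM in the other 9 libraries, with the follicular dendritic cell gene Fdcsp at 0 counts throughout. Cr2 is on both of these marker lists, so each sum holds its 50.8 CPM in XBS 5 and neither is separate from it. Summed alveolar epithelial markers were lowest in XBS 5, at 16826 CPM against 25897 to 33542 CPM in the others. The part of lymphoid tissue and of the composition of that library in these values was not tested.

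**Figure D4:**
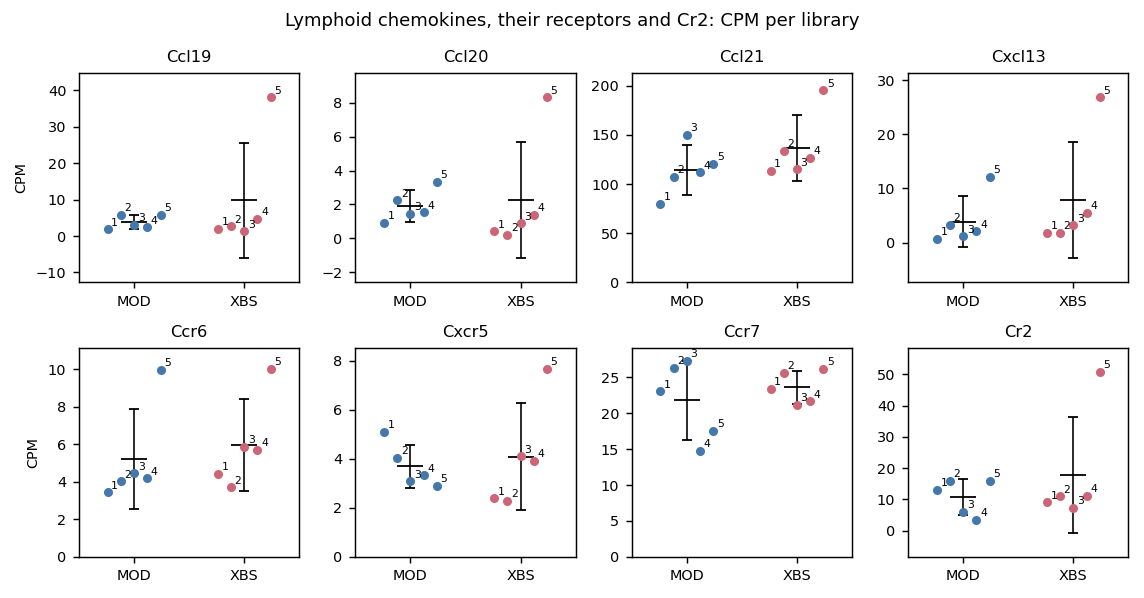
CPM in each library for 4 lymphoid ligands, the receptors of these ligands and Cr2, with replicate numbers, means and SD. XBS 5 is the highest library for Ccl19 (38.1 CPM), Ccl20 (8.32 CPM), Ccl21 (195 CPM) and Cxcl13 (26.8 CPM), and Ccr7 shows no such library.

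The other homeostatic ligands had no such library. Cxcl12, a stromal ligand of CXCR4 that retains leukocytes and progenitors, had 122 ± 32.7 CPM for MOD against 104 ± 17.2 CPM for XBS (SD, n = 5) (log2 fold change -0.24 ± 0.17 (SE; adjusted p = 0.56)), and Cxcl14, of epithelium and stroma, had 76.2 ± 18.9 CPM for MOD against 83.1 ± 35.0 CPM for XBS (SD, n = 5) (log2 fold change 0.12 ± 0.26 (SE; adjusted p = 0.862)). Cxcr4 stood at 91.7 ± 9.84 CPM for MOD against 100.3 ± 16.5 CPM for XBS (SD, n = 5) (log2 fold change 0.13 ± 0.12 (SE; adjusted p = 0.646)). Ccl27, best known from skin, stood at 1.65, 1.37, 1.46, 1.13 and 0.637 CPM in MOD 1 to 5, and 3.37, 2.89, 1.68, 1.33 and 1.36 CPM in XBS 1 to 5. XBS 1, XBS 2 and XBS 3 were above the MOD libraries, XBS 3 only narrowly, and XBS 4 and XBS 5 within their range (log2 change 0.76 ± 0.35 (SE), adjusted p = 0.389). Ccl28 was not tested (1 to 19 counts), and Ccl25 had 4 counts in all MOD libraries together and 0 in XBS.

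Xcl1, the C-type chemokine that NK cells and CD8 T cells release toward cross-presenting dendritic cells, had the second smallest p. It stood at 1.36, 1.44, 1.10, 0.598 and 0.354 CPM in MOD 1 to 5, and 2.05, 2.44, 2.83, 1.71 and 1.43 CPM in XBS 1 to 5. XBS 5 lay just under MOD 2 and above the 4 other MOD libraries, and the 4 other XBS libraries lay above every MOD library. The means were 0.971 ± 0.477 CPM for MOD against 2.09 ± 0.558 CPM for XBS (SD, n = 5), 2.15-fold (log2 change 1.11 ± 0.37 (SE), adjusted p = 0.265) on 5 to 42 counts per library. Without XBS 2 and XBS 3 the log2 fold change was 0.83 (adjusted p = 0.495). Summed NK cell markers were 128, 156, 155, 141 and 117 CPM in MOD 1 to 5, and 192, 203, 216, 120.2 and 103 CPM in XBS 1 to 5, in the same order as Xcl1 among the XBS libraries and in another order among the MOD libraries. All 7 tested NK cell markers had a positive fold change, against 51.9% of all genes. By edgeR 1 of them (14.3%) had an unadjusted p under 0.05, against 13.2% of all genes. Of the 7 markers 0 rose, 0 fell and 7 did not pass, and the part of NK cells in the Xcl1 values was not tested. The receptor Xcr1, a marker of cross-presenting dendritic cells, stood at 4.16, 1.80, 3.80, 2.59 and 10.7 CPM in MOD 1 to 5, and 3.86, 6.22, 8.01, 6.64 and 5.52 CPM in XBS 1 to 5, highest in MOD 5, where Xcl1 was lowest (log2 fold change 0.39 ± 0.42 (SE; adjusted p = 0.699)).

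Cxcl16, a membrane-bound ligand of CXCR6 that also acts as a scavenger receptor of macrophages, had 1277 to 1981 counts per library. It stood at 127, 106, 108, 109 and 90.4 CPM in MOD 1 to 5, and 128, 147, 128, 113 and 119.7 CPM in XBS 1 to 5. Only MOD 1 lay in the XBS range (108 ± 13.1 CPM for MOD against 127 ± 12.7 CPM for XBS (SD, n = 5); log2 change 0.23 ± 0.10 (SE), adjusted p = 0.354), and without XBS 2 and XBS 3 the log2 change was 0.15 (adjusted p = 0.596). Cxcr6, on resident memory T cells and NKT cells, had the opposite sign, at 5.73, 5.41, 8.63, 4.72 and 14.4 CPM in MOD 1 to 5, and 3.78, 3.41, 5.66, 8.48 and 5.67 CPM in XBS 1 to 5. MOD 5 was highest, and the groups overlapped widely (log2 fold change -0.52 ± 0.35 (SE; adjusted p = 0.517)). Cx3cl1, the membrane-bound ligand fractalkine, had a log2 fold change of -0.053 ± 0.12 (SE; adjusted p = 0.871). Its receptor Cx3cr1, of patrolling monocytes, had 0.27 ± 0.20 (SE; adjusted p = 0.548). Cxcl17 had 124 to 171 CPM for MOD against 91.5 to 191 CPM for XBS, lowest in XBS 5, and Pf4 had 17.3 to 38.9 CPM for MOD against 20.5 to 44.2 CPM for XBS.

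**Figure D5:**
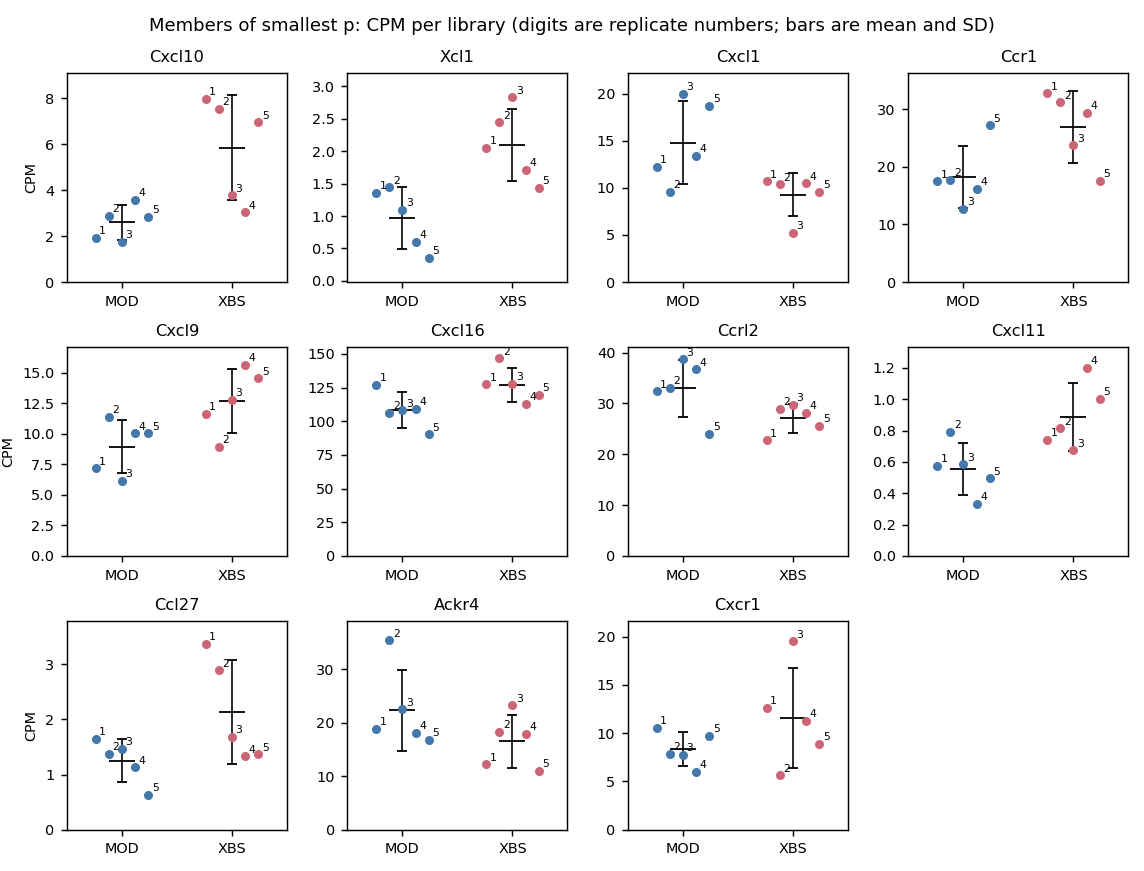
CPM in each library of 11 of the tested genes of smallest p, with replicate numbers and the mean and SD of each group. The groups overlap in every panel, by 1 library in each direction for Xcl1 and Cxcl10 and more widely for Ackr4 and Cxcr1.

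The direction of the receptor genes is given by counts, and differences between the receptor groups were not tested. Of the 8 tested CC receptors 6 were positive and 2 negative, and of the 8 tested CXC, CX3C and XC receptors 7 were positive and 1, Cxcr6, negative. In both groups 0 rose, 0 fell and 8 did not pass, with medians of 0.24 and 0.27 (log2). Over all genes 51.9% were positive, and among all 50 tested chemokine and receptor genes the positive ones went from 38 to 31 without XBS 5. The 4 atypical receptors were all tested, 0 rose, 0 fell and 4 did not pass, and 3 had negative fold changes (median -0.25). Ccrl2, which binds the chemoattractant chemerin and presents it to other cells, stood at 32.4, 33.1, 38.7, 36.7 and 24.01 CPM in MOD 1 to 5, and 22.8, 28.9, 29.8, 28.1 and 25.6 CPM in XBS 1 to 5. Only MOD 5 lay within the XBS range (1.22-fold lower; log2 change -0.29 ± 0.13 (SE), adjusted p = 0.376). Ackr4, which clears CCL19 and CCL21, stood at 18.9, 35.4, 22.5, 18.1 and 16.8 CPM in MOD 1 to 5, and 12.2, 18.3, 23.3, 18.0 and 11.0 CPM in XBS 1 to 5. MOD 2 was far above the other libraries, and the rest overlapped (log2 change -0.43 ± 0.25 (SE), adjusted p = 0.466). The log2 change was -0.20 (adjusted p = 0.789) without MOD 2 and -0.70 (adjusted p = 0.408) without XBS 2 and XBS 3. Ackr3, which scavenges CXCL12, had 154 ± 25.0 CPM for MOD against 134 ± 28.5 CPM for XBS (SD, n = 5) (log2 fold change -0.21 ± 0.16 (SE; adjusted p = 0.575)), and Ackr2, a decoy of inflammatory CC chemokines, 0.505 to 2.27 CPM for MOD against 0.411 to 2.94 CPM for XBS (log2 fold change 0.37 ± 0.52 (SE; adjusted p = 0.786)). Summed endothelial markers were 3695 to 5220.1 CPM for MOD against 2652 to 4027 CPM for XBS. Of 9 tested endothelial markers 1 had a positive fold change, against 51.9% of all genes. By edgeR 4 of the 9 (44.4%) had an unadjusted p under 0.05, all lower in XBS, against 13.2% of all genes. Of 11 alveolar epithelial markers 1 was positive, and 3 (27.3%) had such a p, all lower. Of 9 tested club cell markers 2 were positive, and 1 passed the adjusted threshold, lower in XBS, where 0.0489% of all genes did. The part of these cells in the result was not tested.

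Genes that act downstream of chemokine receptors held a larger share of small p-values than the ligands and receptors themselves, a difference that was not tested. The list was chosen with earlier results of these data known, so its share is a description only. Of 39 listed names 37 were tested, 0 rose, 0 fell and 37 did not pass, but 16 (43.2%) had an unadjusted p under 0.05 by edgeR, 15 higher and 1 lower in XBS, against 13.2% of all genes. The median log2 fold change of the list was 0.10. DESeq2 gave 3 genes past its adjusted threshold, Pik3cd, Rgs19 and Rac2, and limma voom 1, Rgs19, where 2.23% and 0.461% of all genes were called. Groups did not overlap for these 3 genes of the 37, all higher in XBS, against 1.61% of all genes in that direction. Pik3cd, the leukocyte catalytic subunit of phosphoinositide 3-kinase, stood at 90.6, 79.7, 91.6, 68.8 and 87.4 CPM in MOD 1 to 5, and 141, 136, 118, 98.9 and 110.1 CPM in XBS 1 to 5. Every XBS library was above every MOD library (1.45-fold; log2 change 0.53 ± 0.11 (SE), adjusted p = 0.106 by edgeR and 0.00296 by DESeq2). Rgs19, which shortens G protein signals, stood at 31.8, 24.8, 24.3, 25.1 and 26.8 CPM in MOD 1 to 5, and 39.1, 46.4, 38.9, 34.0 and 33.1 CPM in XBS 1 to 5. The groups again did not overlap (log2 change 0.53 ± 0.11 (SE), adjusted p = 0.106 by edgeR and 0.00359 by DESeq2).

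Rac2, the Rac GTPase of blood cells that drives migration and the oxidative burst, stood at 149, 131, 129.9, 123 and 137 CPM in MOD 1 to 5, and 169, 194, 196, 151 and 160.4 CPM in XBS 1 to 5. Its groups were separate by a small margin, MOD 1 at 149 CPM and XBS 4 at 151 CPM (log2 change 0.38 ± 0.09 (SE), adjusted p = 0.129 by edgeR and 0.00867 by DESeq2). Arrb2, a beta-arrestin that uncouples and internalises receptors, had 38.0 to 54.8 CPM for MOD against 51.1 to 64.8 CPM for XBS (log2 fold change 0.39 ± 0.11 (SE; adjusted p = 0.209)). The other beta-arrestin, Arrb1, was the 1 gene with an unadjusted p under 0.05 in the other direction, at 66.0 ± 12.4 CPM for MOD against 49.5 ± 11.0 CPM for XBS (SD, n = 5) (log2 fold change -0.42 ± 0.17 (SE; adjusted p = 0.353)). With single libraries left out, 11 to 17 genes of the list had an unadjusted p under 0.05, and 10 without XBS 2 and XBS 3. The share over all genes was not taken in these fits. Pik3cd and Rac2 are genes of leukocytes, whose summed marker levels are given above, and the part of leukocyte content was not tested.

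Neighbouring genes did not share a direction throughout. In clusters of members less than 1000000 bases apart, the 3 tested genes beside Ccl2 on chromosome 10 (Ccl2, Ccl7 and Ccl11), the 3 CXCR3 ligands on chromosome 14 and Ccl27, Ccl19 and Ccl21 on chromosome 5 were all positive. The 5 tested genes around Cxcl1 on chromosome 14 were split into 3 positive and 2 negative. Of the 63 names in the role lists 57 had a row; Ccr2, Ackr1, Cxcl5, Ccl8, Ccl13 and Ccl23 were not analysed here, and Ccr1l1 had 0 to 14 counts and was not tested.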

How the data were processed

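The authors deposited 1 table that holds, per the file headers, counts and FPKM for every gene in each library; the counts are whole numbers. The deposited FPKM is that count scaled by gene length and depth, as checked, and was used to compare levels between genes. The sources used here name no aligner, counter, annotation, rat build or strand setting that can be tied to this table, and reads of overlapping genes cannot be told apart. Libraries were grouped by their titles. Genes passing filterByExpr (at least 10 counts, total at least 15) were given TMM factors. The quasi-likelihood functions glmQLFit, with its robust option, and glmQLFTest of edgeR 4.0.16 were run under R 4.3.3, with Benjamini-Hochberg adjustment over the 14320 genes kept and a threshold of 0.05. CPM uses the TMM-adjusted library size, and an SE is the log2 change over the root of its F statistic. The procedure was tested on simulated counts.

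DESeq2 1.42.0, limma 3.58.1 (voom with sample weights), other scalings and filters, the replicate number as a block, and leaving out libraries were the alternatives. Members and lists were chosen with earlier results of these data known. Values per library and full statistics are given for the 12 tested members of smallest p, of which 1 is not reported here, and for the CXCR1 and CXCR2 axis, and of the signalling list for the 4 genes of smallest p; further genes were chosen after their values were seen. Protein sequences were not used here.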

Additional observations from a re-analysis of the deposited data

Results flagged for a closer look

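Among 49 tested genes, taken in each group separately, 9 values stood far from the rest of their group (gap to the nearest library over 0.71 of the group's range). For normally distributed values chance flags about 1 in 20 such groups, and 98 groups were examined. The rule was applied to untransformed CPM, so that rate is only a rough guide here. In XBS 5, Ccl19 was at 38.1 CPM, Ccl20 at 8.32 CPM, Ccl21 at 195 CPM and Cxcl13 at 26.8 CPM, each above the 4 other XBS libraries. In MOD 5, Cxcl13 was at 12.1 CPM, Ccr6 at 9.99 CPM and Xcr1 at 10.7 CPM, each above the 4 other MOD libraries. Cxcr4 was high in MOD 2 at 109 CPM, where the other MOD libraries had 85.0 to 88.4 CPM. Cxcl1 was low in XBS 3 at 5.25 CPM, where the other XBS libraries had 9.61 to 10.7 CPM.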

How the results depend on the processing

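The count of chemokine and receptor genes past the threshold was 0 in each direction under every alternative run except DESeq2, which gave 1 higher (Cxcl10). With the replicate number as a block it was 0, with 9 members at an unadjusted p under 0.05; same-numbered libraries correlated at -0.145 to 0.357 in their deviations from the group means, 1 of the 5 MOD libraries had its highest correlation with the XBS library of its own number, and the labels do not pair them. The median log2 fold change of the tested members was 0.11 to 0.26 with single libraries left out, lowest without XBS 5, and 0.19 without XBS 2 and XBS 3. With single libraries left out, the log2 fold change ran from -0.10 to 0.11 for Cxcl3, from -0.45 to 0.091 for Cxcl6, from -0.39 to 0.53 for Ppbp, from -0.49 to 1.65 for Ccl19, from -1.35 to 0.54 for Ccl20 and from -0.32 to 2.13 for Cxcl13. The sign also turned with the replicate block for Cxcl3 (-0.024) and Ccl20 (-0.53), and by limma voom for Ccl20 (-0.58); the cause was not tested. Members with an unadjusted p under 0.05 numbered 3 (without MOD 3) to 11 (without MOD 5), 4 without MOD 4 and 12 by limma voom. For this p the share over all genes, 13.2%, was taken only in the main fit. These counts and that of the replicate block therefore have no background of their own. Genes under about 10 counts per library were too shallow to compare.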

Other observations

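Cxcl10 and Cxcl1, chosen after their values were seen as the members of smallest p in each direction, can be set against each other within a library, where scaling cancels. Reads of Cxcl10 per read of Cxcl1 were 0.158, 0.301, 0.0879, 0.267 and 0.152 in MOD 1 to 5 and 0.746, 0.729, 0.718, 0.289 and 0.724 in XBS 1 to 5. XBS 1, XBS 2, XBS 3 and XBS 5 thus held similar ratios above every MOD library, and XBS 4 lay just under MOD 2. The ratio of XBS 3 came from low Cxcl1 (78 counts), the value flagged above, beside 56 counts of Cxcl10, near the 54 of MOD 4. XBS 1, XBS 2 and XBS 5 had 97 to 102 counts of Cxcl10, so similar ratios did not come from similar levels. No test was made, because the pair was picked for its difference.

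MOD 5 was the highest MOD library for 16 of the 50 tested genes and the lowest for 11, and XBS 5 the highest XBS library for 15 and the lowest for 13. XBS 3 was the highest XBS library for 15 and the lowest for 4, and MOD 1 the highest MOD library for 7 and the lowest for 19.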
